A study of Mus musculus with 14 samples.

Results

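Mpo- or Ctsg-positive cells were the cells of plates 352W and 353W in which at least 1 molecule of Mpo or Ctsg was counted, among cells with 500 or more total counts. They were 100 of the 344 such cells of the 2 plates, and of the 716 such cells in all 4 plates of the series. The 244 other cells of the 2 plates, with 0 counts of both genes, were the cells they were compared with. Membership was chosen by the Mpo and Ctsg counts themselves, so the shares and levels of these 2 genes are a description and carry no test. The other genes were tested with Mpo and Ctsg taken out of the tables.

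The study compared bone marrow haematopoietic stem cells (HSCs) of PHF19 KO mice with those of floxed controls. Phf19 is a Polycomb-associated protein. The single-cell arm used MARS-Seq, a plate method in which each RNA molecule is counted by a unique molecular identifier, on lineage-depleted bone marrow cells labelled CD150-positive and CD48-negative. The series holds 14 samples, of which the 4 MARS-Seq plates have count tables used here.

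The groups compared are KO and WT cells, named by the prefix of the cell name, since the labels give the plates no genotype. Each plate held 192 wells with the KO cells and WT cells in separate well ranges, so that genotype and well position cannot be told apart. Whether the WT cells came from floxed animals, which promoter drove any deletion, the ages of the mice and the number of mice per plate are not stated in the labels. The replicates are therefore plate and prefix pools, and p-values measure only the spread between them, which may be technical. Well numbers recur on each plate, but no cell name was shared between plates, and 13 of the 87 well numbers with a positive cell had one on both.

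Mpo encodes myeloperoxidase, the haem enzyme that makes hypochlorous acid in the neutrophil, and Ctsg encodes cathepsin G, a serine protease. Both proteins are stored in the primary (azurophilic) granules of neutrophils together with the related proteases neutrophil elastase (Elane) and proteinase 3 (Prtn3). In the mouse the genes are switched on early, in granulocyte and monocyte progenitors, under the transcription factors C/EBP alpha, PU.1, RUNX1 and MYB, and they are silent again in mature neutrophils. Low Mpo in a stem or multipotent cell is commonly read as an early sign of the myeloid lineage.

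The sequences before the start sites of the 2 member-defining genes are shown because they are where such factors could bind. They are from RefSeq on build GRCm38.p6, read 5′ to 3′ in the direction of the gene, and hold the 250 bases before the annotated start. Mpo lies at chr11:87793534-87793783 on the plus strand and Ctsg at chr14:56102575-56102824 on the minus strand. Capitals mark matches, on either strand, to a C/EBP motif (TTGCNNAA), a PU.1 motif (AGAGGAAG) or a RUNX motif (TGTGGT), none of which overlap here.
Mpo: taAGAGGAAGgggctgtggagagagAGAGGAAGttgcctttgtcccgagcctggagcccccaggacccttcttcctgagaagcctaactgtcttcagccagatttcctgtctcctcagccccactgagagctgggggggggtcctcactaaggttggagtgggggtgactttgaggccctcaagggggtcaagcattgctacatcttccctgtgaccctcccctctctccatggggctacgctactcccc
Ctsg: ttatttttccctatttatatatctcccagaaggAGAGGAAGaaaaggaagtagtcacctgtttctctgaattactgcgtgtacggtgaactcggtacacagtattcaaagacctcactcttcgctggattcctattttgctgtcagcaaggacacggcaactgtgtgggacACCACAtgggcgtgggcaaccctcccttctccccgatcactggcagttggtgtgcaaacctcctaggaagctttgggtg

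The Mpo sequence held 2 matches to the PU.1 letters, 248 and 225 bases before the start, and the Ctsg sequence held 1, 217 bases before it. Ctsg also held 1 match to the RUNX letters, on the other strand and 79 bases before the start. Neither sequence held a match to the C/EBP letters. Of 32851 promoter sequences of the same length, 3.67% held the PU.1 letters, 14.0% the RUNX letters and 9.56% the C/EBP letters. These matches are a description of the letters and not of binding.

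Mpo supplied most of the membership. It was counted 273 times in 92 cells and Ctsg 79 times in 26 cells. Mpo alone was seen in 74 cells, both genes in 18 and Ctsg alone in 8. In 48 of the 100 cells the whole membership rested on a single count, 27 cells had 4 or more counts and 9 had 10 or more.

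Ctsg was found more often where Mpo was high. Of 25 cells with 4 or more Mpo counts, 10 also had Ctsg, against 2 of 43 cells with 1 Mpo count. Deeper cells have more chances of showing either gene, and this comparison was not corrected for depth. By plate, Ctsg was seen in 4 of 10 cells of 352W and 6 of 15 cells of 353W with 4 or more Mpo counts. With 1 Mpo count it was seen in 0 of 11 cells of 352W and 2 of 32 cells of 353W.

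The levels in whole pools were low. Mpo stood at 158 and 196 CPM (the gene's counts divided by all counts of the pool and scaled alike everywhere) in KO cells of 352W and 353W, against 205 and 192 in WT cells of 352W and 353W. Ctsg stood at 27.2 and 57.5 CPM in KO cells, against 72.4 and 54.8 in WT cells, in the same plate order. The lowest of these, Ctsg in KO cells of 352W, was 6 counts in 3 cells, and the highest, in WT cells of 352W, was 23 counts, 14 of them in 1 cell.

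**Figure D1:**
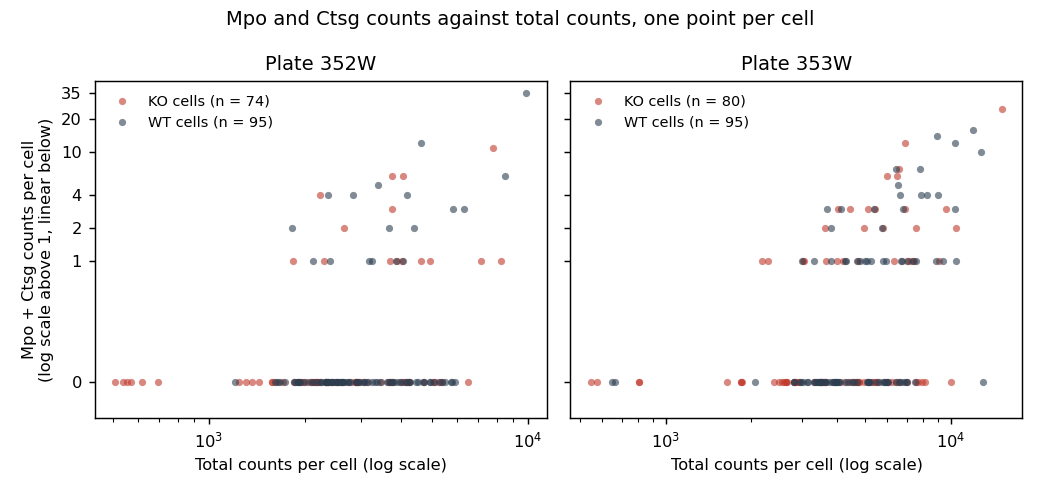
Mpo plus Ctsg counts (vertical axis, log above 1) against total counts (horizontal, log) for each cell with 500 or more counts, KO cells in red and WT cells in dark blue, by plate. Cells with 10 or more Mpo and Ctsg counts have totals of 4633 or more, and cells with 0 span almost the whole range of totals.

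Positive cells were the deeper cells. The median total was 3898 counts in positive cells against 2334 in negative cells for the KO pool of 352W, and 3760 against 2738 for its WT pool. On 353W it was 5787 against 3614 in KO cells and 6576.5 against 3949 in WT cells. The ratio of medians lay between 1.37 and 1.67 in the 4 pools. More RNA in a cell and better capture of it cannot be told apart in these totals.

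The share of positive cells followed depth in the same way. On 352W, 29.8% of cells above the plate's median total of 2782 were positive, against 9.41% of the cells at or below it. On 353W, with a median of 4679, the shares were 55.2% and 21.6%. The smallest total among members was 1826, and 1 well of 479 counts with 1 Mpo count lay just outside the limit of 500.

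The shares of positive cells in KO and WT pools overlapped within counting error on each plate. On 352W, 15 of 74 KO cells were positive (20.3%, exact Clopper-Pearson 95% interval 11.8 to 31.2), against 18 of 95 WT cells (18.9%, 11.6 to 28.3). On 353W, 29 of 80 KO cells were positive (36.2%, 25.8 to 47.8), against 38 of 95 WT cells (40.0%, 30.1 to 50.6). The intervals of KO and WT overlapped on both plates and cover counting error only.

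KO minus WT was 1.32 percentage points on 352W and -3.75 on 353W, a mean of -1.21 ± 3.59 (SD, n = 2 plates). With 2 plates a sign-flip test cannot give a p below 0.5, so no test was made. The limit of 500 counts left out 22 KO wells and 1 WT well of 352W and 16 KO wells and 1 WT well of 353W. With these wells counted, KO minus WT was -4.17 percentage points on 352W and -9.37 on 353W, and with membership set at 2 or more counts it was -4.52 and 1.05. The sign on either plate thus depended on such choices. The number of cells expected to be positive was also computed exactly for every cell thinned to 1000 counts, leaving out 12 shallower cells. The expected share was then 10.3% in KO cells against 10.7% in WT cells of 352W, and 14.7% against 14.2% on 353W. Without thinning the plates differed by 18.8 percentage points, and at 1000 counts by 3.85.

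**Figure D2:**
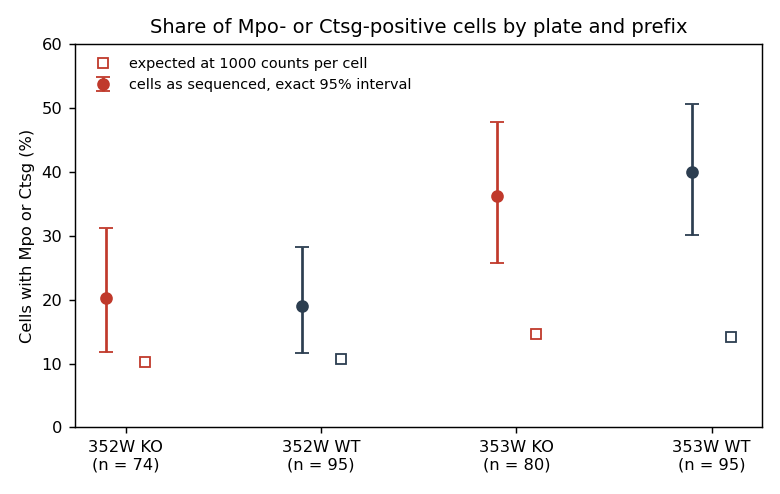
Share of cells with at least 1 Mpo or Ctsg count (%) for the KO and WT pools of each plate, with exact 95% intervals (filled circles), and the share expected at 1000 counts per cell (open squares). KO and WT sit side by side on each plate, and the expected shares lie between 10.3% and 14.7%.

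Neither gene has a row in the tables of plates 350W and 351W, which list only genes with a count, so both were taken as 0 in the 372 kept cells there. Prtn3 stood at 258 and 272 CPM on 352W and 353W, against 217 and 188 CPM on 350W and 351W. In the 40 wells of 352W and 353W with under 500 counts, 1 Mpo count and 0 Ctsg counts were found in 12290 counts. Cells were not assigned to types, so no type that should lack both genes was set apart. The level given by free RNA was therefore not measured. Of the 8 kept cells with over 100 immunoglobulin counts, 3 were positive, and the part of free RNA in this was not tested. The label of the sort was checked by its markers. Slamf1, which encodes CD150, had 1 and 0 counts on 352W and 353W, and Cd48, which the sort excludes, had 111 and 35. On 350W and 351W, Slamf1 had 5 and 21 counts and Cd48 had 1 and 0. The transcript of the marker that the sort selects was thus nearly absent on the 2 plates with positive cells.

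The 9 cells with 10 or more counts differed among themselves. The highest, a WT cell of 352W, had 21 Mpo and 14 Ctsg counts, and with them 20 Prtn3 counts, 9 of Elane, 5 of Ms4a3 (a membrane protein of granulocyte and monocyte progenitors) and 6 of Irf8 (a transcription factor of monocytes and dendritic cells). The next, a KO cell of 353W, had 15 Mpo and 10 Ctsg counts with 18 of Prtn3 and 0 of Elane, Ms4a3 and Irf8. The 7 others held between 0 and 8 Prtn3 counts, and none held Elane or Ms4a3. Thus 1 cell carried the fuller granule programme of Mpo, Ctsg, Prtn3 and Elane.

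That cell held 9 of the 10 Elane counts of the 344 cells and 5 of the 7 Ms4a3 counts. Cebpa, the gene of C/EBP alpha, had 0 counts in all 9 cells. Its 39 counts on the 2 plates were in other cells, 22 of them in the 244 cells with 0 Mpo and Ctsg counts and the rest in positive cells. The most in 1 cell was 9, in a positive cell of 352W with 2 to 3 counts of Mpo and Ctsg. Cebpe, which acts later in granulocytes, had 2 counts, both in 1 cell.

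Prtn3 was highest in the cells with the most Mpo and Ctsg. By the sum of Mpo and Ctsg counts in a cell, Prtn3 stood at 220 CPM in the 244 cells with 0, 259 in the 48 cells with 1, 250 in the 25 cells with 2 to 3 and 502 in the 27 cells with 4 or more. The last class was also the highest on each plate, with 616 CPM on 352W and 458 on 353W, against 199 and 237 in the cells with 0. Without the 9 highest cells it was 350 CPM, with 320 on 352W and 363 on 353W. On 352W that was below the 336 CPM of the cells with 1 count. There, 20 of the 33 Prtn3 counts of the class of 4 or more were in 1 cell. No test was made across these classes.

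**Figure D3:**
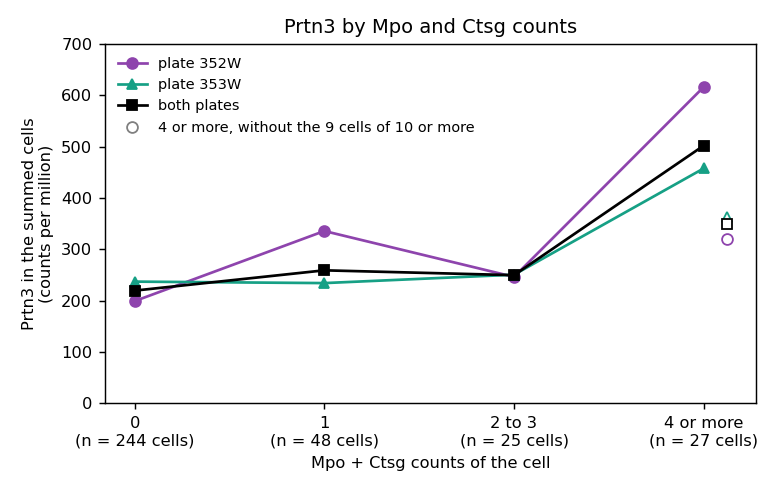
Prtn3 in summed cells (CPM) by the Mpo plus Ctsg counts of the cell, for each plate and both together, with open symbols for the class of 4 or more without the 9 cells of 10 or more. The class of 4 or more stands at 502 CPM for both plates, and at 350 without those 9 cells.

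Other genes of the granule and myeloid lists varied over these classes in different ways. Values are for both plates together unless a plate is named. Cd93, the surface lectin of early progenitors, stood at 33.7, 24.7, 95.4 and 99.4 CPM over the classes from 0 to 4 or more. Serpinb1a, an inhibitor of granule proteases, stood at 90.6, 90.5, 162 and 68.0 CPM, lowest in the class of 4 or more. By plate it was 131, 185, 598 and 112 CPM on 352W and 56.0, 59.9, 46.4 and 50.9 CPM on 353W. The 598 CPM was 17 counts in 5 cells. Irf8 stood at 8.13, 16.4, 7.34 and 57.5 CPM, and 6 of the 11 counts of the last class were in the 1 WT cell of 352W. Ms4a3 stood at 1.16, 4.11, 0 and 26.2 CPM. Lyz2, the lysozyme gene, stood at 67.4, 78.1, 110 and 88.9 CPM. The plates went different ways, with 52.9, 50.3, 35.2 and 37.4 CPM on 352W and 79.7, 87.1, 130 and 109 CPM on 353W. Srgn, which encodes the proteoglycan that packs granule proteins, stood at 997, 987, 962 and 873 CPM. Calr stood at 157, 197, 191 and 277 CPM, Cd34 at 311, 308, 323 and 424 and Ly6e at 524, 534, 668 and 701. Spi1 stood at 106, 78.1, 95.4 and 152 CPM and Csf1r at 11.6, 20.6, 14.7 and 36.6. Calr, Cd34, Ly6e, Spi1 and Csf1r were thus highest in the last class, as were Nkg7, Cebpb and Elane. Runx1, Myb, Cebpa, Gfi1, Csf3r and Fcgr3 were not. By plate, Calr was highest there on 353W only, and Ly6e and Csf1r on 352W only.

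The main comparison asked which genes accompany Mpo and Ctsg when depth is held alike. For each positive cell up to 3 negative cells of the same plate and prefix were taken with the nearest totals, at most 25% higher or lower by the same factor. This used 88 of the 100 positive cells and 170 comparison cells. The positive cells numbered 13 and 28 in the KO pools of 352W and 353W and 16 and 31 in the WT pools, and the comparison cells 30 and 43 in KO and 47 and 50 in WT. Counts were summed per pool and status, and edgeR's quasi-likelihood test was run with the pool as a block.

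Matching had limits that touch the results. The 12 positive cells without a partner had totals of 7149 to 15126 counts and included 5 of the 9 cells with 10 or more Mpo and Ctsg counts, both top cells among them. Medians were close on 352W, at 3747 counts in positive cells against 3545 in comparison cells for KO and 3525.5 against 3362 for WT. On 353W positive cells stayed deeper, at 5612 against 4428 for KO and 5781 against 4195 for WT. The genes detected per cell at 1000 counts were 717 against 719.5 and 726.5 against 729 in KO and WT of 352W, and 797.5 against 783 and 795 against 788 on 353W.

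Few genes passed the test between positive and matched comparison cells. Of 3436 genes tested, 1 passed at an edgeR adjusted p below 0.05, the immunoglobulin light chain gene Iglc1, which is 0.0291% of the genes. At an unadjusted p below 0.05 there were 129 genes, 53 higher and 76 lower in positive cells, where 171.8 would be expected if no gene differed. The median log2 fold change over all tested genes was -0.02.

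The single gene called was an antibody gene of few wells. Iglc1 had 31 counts in the KO pool and 52 in the WT pool of positive cells on 352W, against 114 and 981 in the comparison cells, and 0 counts in every sum of 353W. Its log2 fold change was -2.01 (SE 0.31, edgeR adjusted p = 0.0157). On 352W it had 1389 counts, of which 568 and 212 were in 2 negative WT wells. Without the cells of over 100 immunoglobulin counts the log2 fold change was -0.79 and it was not called, nor was it among the called genes when any 1 of the 4 pools was left out. Immunoglobulin light chain genes are near copies of each other, so its counts are uncertain.

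No tested member of the primary granule list passed the test. Of its 11 genes, Mpo and Ctsg define the cells and 6 others had enough counts, of which 5 had a fold change above 0. Their median log2 fold change was 0.34, against -0.02 over all tested genes. Elane, Ms4a3 and Hp (haptoglobin) were below the filter on low counts.

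Prtn3 itself had 11, 20, 50 and 46 counts in the positive sums of 352W KO, 352W WT, 353W KO and 353W WT. The comparison sums held 32, 26, 40 and 60 counts in the same order. As CPM these were 222, 343, 316 and 248 in positive cells, against 306, 157, 202 and 250. It was higher in the positive cells of 2 of the 4 pools and lower or level in the other 2, so the groups overlapped. The log2 fold change was 0.30 with an SE of 0.24 (edgeR adjusted p = 0.998), and it was 0.33 on 352W and 0.30 on 353W alone.

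This value was smaller in some settings and larger in others. With 1 pool left out it ran from 0.12, without the WT cells of 352W, to 0.47, without the KO cells of 352W. With no gene filter it was 0.21. With all positive and negative cells, unmatched, the log2 fold change of Prtn3 was 0.65 (SE 0.27, edgeR adjusted p = 0.816), and with every cell thinned to 1000 counts it was 0.92 (SE 0.37, edgeR adjusted p = 0.542). Those settings keep the 2 cells with the most Mpo and Ctsg, which held 20 and 18 Prtn3 counts and which matching left out. Without these 2 cells, a setting chosen after seeing the data, it was 0.36 (SE 0.23, edgeR adjusted p = 0.991) unmatched and 0.86 (SE 0.35, edgeR adjusted p = 0.437) thinned. Counting cells, Prtn3 was seen in 8 of 15 positive KO cells and 13 of 18 positive WT cells of 352W, against 25 of 59 and 22 of 77 negative ones. On 353W it was seen in 24 of 29 and 24 of 38 positive cells, against 25 of 51 and 31 of 57 negative ones. The share was higher in positive cells of all 4 pools, in cells that were also deeper.

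The other granule genes did not pass either. Serpinb1a had a log2 fold change of 0.66 (SE 0.39), with 1.14 on 352W and 0.13 on 353W. Calr, the chaperone that folds myeloperoxidase in the endoplasmic reticulum, had 0.46 (SE 0.28) and was higher in positive cells of 3 pools. Lyz2 had 0.38 (SE 0.40), Nkg7, a granule membrane protein of cytotoxic and myeloid cells, had 0.24 (SE 0.46) and Srgn had -0.09 (SE 0.12). The unadjusted p-values of these 5 genes in edgeR's test ran from 0.106 to 0.614.

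Transcription factors and receptors of the myeloid lineage did not pass either. Of 12 factors, 3 were tested. Spi1, which encodes PU.1, had a log2 fold change of -0.02 (SE 0.45), Runx1 -0.03 (SE 0.26) and Myb -0.29 (SE 0.32). Of 13 receptors, 3 were tested. Cd34, a surface sialomucin of progenitors, had 0.18 (SE 0.19), Ly6e 0.15 (SE 0.15) and Cd93 0.80 (SE 0.53). Cd93 was higher in positive cells of 3 pools, with 31 counts in positive cells against 27 in comparison cells. The receptors of the growth factors GM-CSF, G-CSF and M-CSF were below the filter.

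Myeloid factors below the filter were counted in few cells. Cebpa had 10, 1, 5 and 1 counts in positive sums of 352W KO, 352W WT, 353W KO and 353W WT, against 3, 9, 0 and 1 in comparison sums. Of the 10 counts of 352W KO, 9 were in 1 cell. Irf8 had 2, 0, 4 and 2 counts, against 1, 1, 4 and 0. Gfi1, the repressor that favours granulocytes over monocytes, had 2, 1, 2 and 1 counts, against 0, 4, 1 and 5. Csf3r, the G-CSF receptor, had 0, 0, 1 and 7, against 1, 5, 4 and 6. None of these separated the groups.

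Since no other gene of the myeloid lists passed, the cells are called here by the 2 genes that chose them and not by a lineage. Mature neutrophil genes were close to absent: of 10 listed, 4 had a row in the tables, and these summed to 0 to 10.8 CPM in positive pools against 0 to 20.2 CPM in comparison pools. S100a9, Mmp8 and Cxcr2 were at 0 in the matched positive cells.

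Stem cell genes leaned lower without passing the test. Of 25 listed genes 10 were tested, 8 with a fold change below 0, and the median log2 fold change was -0.23 against -0.02 over all tested genes. The summed level was 2647, 2592, 2272 and 2216 CPM in positive cells of 352W KO, 352W WT, 353W KO and 353W WT, against 2727, 2996, 2657 and 2724 CPM in comparison cells. It was lower in positive cells of all 4 pools, and no test was made on this sum.

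Among them, Ifitm1, an interferon-inducible membrane protein gene high in stem cells, had a log2 fold change of -0.39 (SE 0.16, unadjusted p = 0.0282 in edgeR's test). It was 0.04 on 352W and -0.65 on 353W. Mecom and Hlf, transcription factors needed by stem cells and picked after their values were seen, had -0.39 (SE 0.36) and -0.36 (SE 0.30). Kit, the stem cell factor receptor, had -0.37 (SE 0.24), and Meis1, a homeobox cofactor, had 0.05 (SE 0.31). Ifitm3 had -0.01, and Angpt1 had 0.22, the highest value of the tested genes of the list. Slamf1 had 0 counts in all 8 sums.

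Erg, an ETS factor that maintains stem cells, was outside the lists and was picked after its values were seen. It had 3, 2, 11 and 21 counts in positive cells of 352W KO, 352W WT, 353W KO and 353W WT, against 15, 28, 33 and 39 in comparison cells. Its CPM was 34.3 to 113 in positive cells and 144 to 169 in comparison cells. The groups did not overlap, as was true of 51 of the 3436 tested genes, or 1.48%. The log2 fold change was -1.12 (SE 0.35, edgeR adjusted p = 0.998).

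Genes of multipotent and lymphoid progenitors showed no common direction. Of 16 listed, 11 were tested, with 4 fold changes above 0 and 7 below, and a median log2 fold change of -0.07. Flt3, the receptor of multipotent progenitors, had 0.30 (SE 0.23), Dntt, the terminal transferase of lymphoid progenitors, had -0.01 (SE 0.21), and Cd48 had -0.16 (SE 0.41). Ikzf1, which encodes the lymphoid factor Ikaros, had -0.47 (SE 0.30).

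Cell cycle genes leaned higher, again without a call. Of 15 S phase genes 10 were tested, 8 above 0, with a median log2 fold change of 0.27. Of 17 G2/M genes 7 were tested, 6 above 0, with a median of 0.28. The summed S phase level was 1192, 1322, 2259 and 1828 CPM in positive cells of 352W KO, 352W WT, 353W KO and 353W WT, against 928.0, 990.5, 1549 and 1878 CPM in comparison cells, and was lower in positive cells of 353W WT. The summed G2/M level was 1172, 1356, 1721 and 1725 CPM in the same order, against 1540, 996.5, 1412 and 1252 CPM, and was lower in positive cells of 352W KO. Birc5, which encodes the mitotic protein survivin, had 7, 9, 12 and 15 counts in positive cells of 352W KO, 352W WT, 353W KO and 353W WT, against 10, 15, 1 and 5 in comparison cells. It was higher in positive cells of all 4 pools as CPM, as were 6.02% of the 3436 tested genes. Its log2 fold change was 1.37 (SE 0.46, edgeR adjusted p = 0.998, unadjusted p = 0.00781), with 0.62 on 352W and 2.54 on 353W.

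Dut, the dUTPase of S phase, was higher in 4 of 4 pools, like 6.02% of all tested genes. Its log2 fold change was 0.69 (SE 0.25, unadjusted p = 0.0107 in edgeR's test). Rrm1, a subunit of ribonucleotide reductase, was picked after its values were seen and had the highest value of the S phase list. It was 0.83 (SE 0.37, unadjusted p = 0.0397 in edgeR's test). Of the other S phase genes named by level, Pcna had 0.43, Mcm7 0.20, Hells -0.17 and Mcm6 -0.28. Top2a, a mitotic topoisomerase, had 0.41 (SE 0.23) and was also higher in 4 of 4 pools, with 1.19 on 352W and 0.12 on 353W. Of the other G2/M genes named by level, Cdk1 had 0.11, Ube2c -0.01 and Hmgb2 0.28. Hmgb2 was at -0.35 on 352W and 0.72 on 353W. G1 cyclins and their kinases had values near 0, with a median of 0.06 over 4 tested genes. Positive cells of 353W were also deeper than their comparison cells, and the part of that in these values was not tested.

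**Figure D4:**
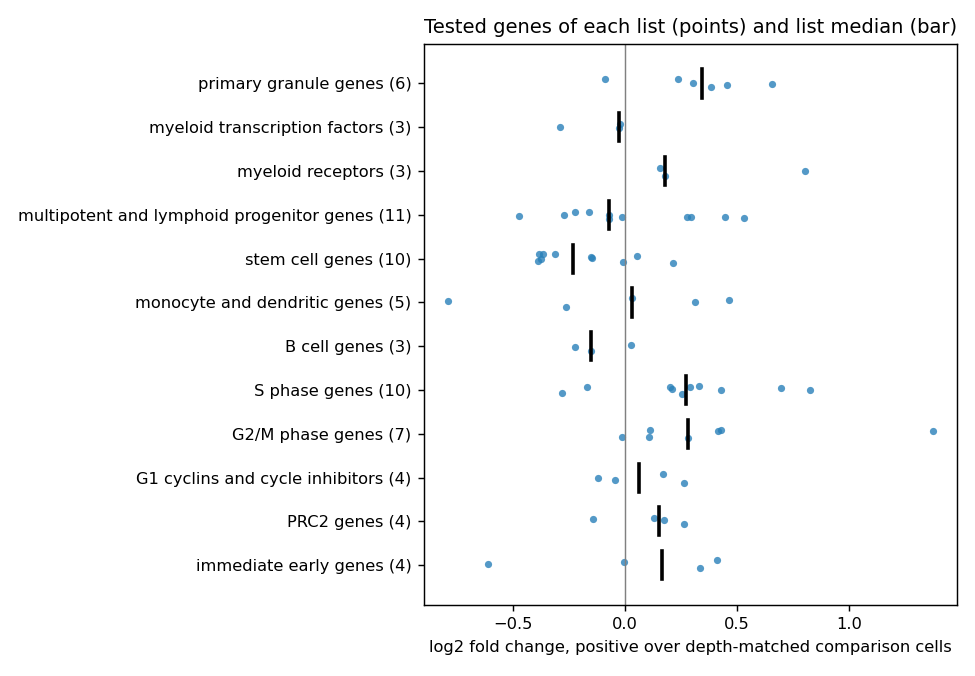
log2 fold change of positive over depth-matched comparison cells for each tested gene (points) of the lists with at least 3 tested genes (number in brackets), with the list median (bar). Granule genes have a median of 0.34, S phase and G2/M genes 0.27 and 0.28, and stem cell genes -0.23. No gene shown passed the test.

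Lists of other cell types gave no called gene. Megakaryocyte genes had 1 tested gene of 12, Cd9, at 0.42 (SE 0.49). Erythroid genes had 2 of 14, Car2 at -0.31 (SE 0.19) and Car1 at 0.32 (SE 0.44). Monocyte and dendritic genes had 5 of 14, 3 above 0 and 2 below, with a median of 0.03. Of these Cd74, the invariant chain of MHC class II, had the lowest value, -0.79 (SE 0.32, unadjusted p = 0.0243 in edgeR's test). Cx3cr1 had the highest, 0.46. B cell genes had 3 of 12, with a median of -0.15, and T and NK cell genes had 1 of 10, Lck at -0.03 (SE 0.36). No gene of the mast cell, basophil and eosinophil list or of the endothelial and stromal list had enough counts.

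No Polycomb or immediate early gene passed. Of 11 genes of the PRC2 complex and its partners, Rbbp4, Rbbp7, Eed and Jarid2 were tested, with fold changes from -0.14 to 0.26 and a median of 0.15. Of 11 immediate early genes, which respond to tissue handling, 4 were tested with a median of 0.17, and Jun had -0.61 (SE 0.37).

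Outside the lists, the genes with the lowest p in each direction did not pass either, apart from Iglc1. Higher in positive cells were Igha, an antibody heavy chain gene, at 1.60 (SE 0.40), Dap at 1.36 (SE 0.39), Dpy30, a subunit of histone H3K4 methyltransferases, at 0.90 (SE 0.29), the aspartic protease gene Napsa at 0.84 (SE 0.27) and Ncoa7 at 1.34 (SE 0.43). Lower were the antibody gene Iglv1 at -2.85 (SE 0.65), Cdk8, the kinase of the Mediator complex, at -0.81 (SE 0.20), mt-Co1, a mitochondrial cytochrome oxidase subunit, at -0.31 (SE 0.08), and Ndufa13, a subunit of respiratory complex I, at -0.55 (SE 0.16). Ndufa13 overlaps Yjefn3, and their reads may be shared. The edgeR adjusted p of these 9 genes lay between 0.655 and 0.998.

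Dap, Dpy30 and Napsa were higher in positive cells of all 4 pools, and Cdk8, mt-Co1 and Ndufa13 were lower in all 4. Over all 3436 tested genes, 207 (6.02%) were higher in positive cells of all 4 pools and 236 (6.87%) of none. Cdk8 stood at 263, 206, 228 and 286 CPM in positive cells of 352W KO, 352W WT, 353W KO and 353W WT, against 440, 562, 309 and 471 CPM in comparison cells. Napsa stood at 162, 378, 234 and 280 CPM, against 86.1, 103, 157 and 196. The share of counts from the mitochondrial genome was 5.47% against 6.42% and 5.70% against 5.77% in KO and WT of 352W, and 0.975% against 0.901% and 1.52% against 1.71% on 353W.

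The 2 plates were then set against each other, each with its own cells. Over 1416 genes fitted on both, the log2 fold changes had a Pearson correlation of 0.07 and a Spearman correlation of 0.06, and 51.1% had the same sign. Genes are not independent replicates, so no p is given. Of the 32 list genes named by membership or level and fitted on both plates, 16 had the same sign and 16 the opposite sign. Among those of the same sign were Prtn3, Dut and Kit. Among those of the opposite sign were Runx1, at 0.62 on 352W and -0.20 on 353W, Myb at -1.12 and 0.10, Cd34 at 0.64 and -0.09, and Meis1 at -0.51 and 0.78. Genes named for a low p in the fit over both plates were left out of this count, since that choice favours a shared sign.

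**Figure D5:**
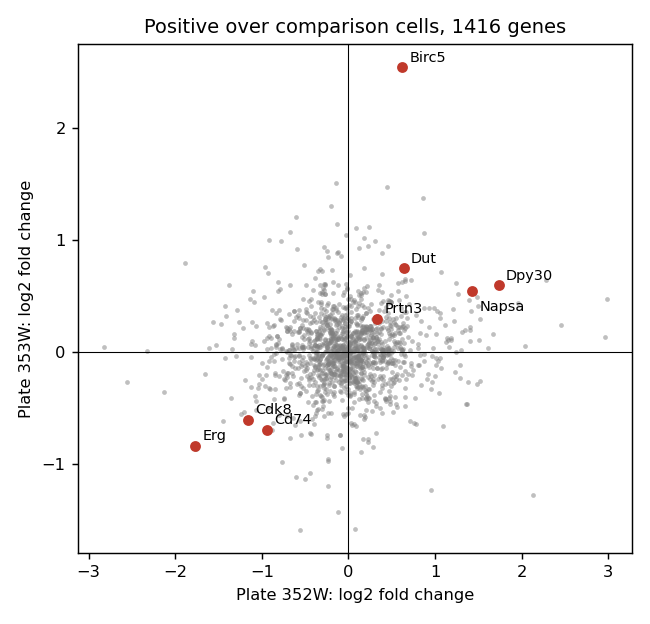
log2 fold change of positive over comparison cells on plate 353W (vertical) against plate 352W (horizontal) for 1416 genes, with 8 genes marked after their values were seen. The cloud has no visible slope, with a Pearson correlation of 0.07.

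Whether Mpo- or Ctsg-positive cells differed from comparison cells in another way in KO than in WT was tested as an interaction. It called 3 of 3436 genes at an edgeR adjusted p below 0.05, which is 0.0873%. All were antibody genes: Jchain, the joining chain of secreted antibodies, at a log2 difference of 5.05 (SE 0.52, edgeR adjusted p = 7.39e-05), Iglv1 at 5.45 (SE 0.84, edgeR adjusted p = 0.0104) and Igha at 2.90 (SE 0.32, edgeR adjusted p = 0.000208). A positive difference means a higher ratio of positive to comparison cells in KO.

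These calls came from plate 352W and few wells. Jchain had 162 counts in KO positive cells and 31 in WT positive cells of 352W, against 44 and 458 in KO and WT comparison cells, and 2, 1, 7 and 8 counts in those sums of 353W. None of the 3 genes was called when the KO or the WT pool of 352W was left out. Of 855 Igha counts on 352W, 349 were in 1 KO positive well, and 353W had 0. Without the cells of over 100 immunoglobulin counts no gene was called, with 73 genes at an unadjusted p below 0.05, and DESeq2 called 0, with 11. Of the 8 kept cells over that limit, 3 were positive and 5 negative, with 3 KO cells and 5 WT cells.

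Within the lists, the interaction of Prtn3 was -0.16 (edgeR adjusted p = 0.999), of Srgn -0.14, of Calr 0.01 and of Serpinb1a -0.22. None of the named granule, factor or receptor genes passed.

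KO and WT positive cells were finally compared directly, with the plate as a block. Of 2452 genes tested, 2 passed at an edgeR adjusted p below 0.05, which is 0.0816%, and 40 had an unadjusted p below 0.05 where 122.6 would be expected if no gene differed. They were Igha, 2.82 higher on the log2 scale in KO (SE 0.29) at an edgeR adjusted p of 0.0208, and Jchain, 2.50 higher (SE 0.34) at 0.0481. Both rest on the wells of 352W given above, and neither was called without the cells of over 100 immunoglobulin counts.

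No granule gene passed between KO and WT positive cells. Prtn3 had a log2 fold change of -0.02 (SE 0.40) and Srgn -0.13 (SE 0.24), and Calr had 0.02 (SE 0.45). The 5 tested granule genes had a median of -0.13, the 3 transcription factors 0.42, the 2 receptors 0.0039 and the 9 stem cell genes 0.15, against -0.01 over all tested genes. Only 4 sums entered this fit, with 1 residual degree of freedom per gene.

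Bach2, a repressor that holds back myeloid genes in lymphoid progenitors, is named because of its low counts in KO, seen after its values. It had 0 and 4 counts in KO positive cells of 352W and 353W, against 11 and 51 in WT positive cells, which gave a log2 fold change of -3.75 with an SE of 0.80 and an edgeR adjusted p of 0.836. It was called only with no gene filter, at -3.77 and an edgeR adjusted p of 0.00624, and in the other alternatives the adjusted p was 0.178 or more. Comparison cells had 0 and 8 counts in KO, against 32 and 63 in WT. Its interaction was -0.63 (SE 1.01, edgeR adjusted p = 0.999). A change of the KO against WT gap between positive and comparison cells was thus not detectable at these counts. For positive against comparison cells the log2 fold change of Bach2 was -0.11.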

How the data were processed

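Molecule counts per gene and cell were deposited by the authors as raw counts, one table per MARS-Seq plate, without normalization. Per the submitters' processing notes, build GRCm38.p4 and FastQC were used; the aligner is not given in the sources used here. Symbols were matched for 25714 of 25832 gene IDs. Cells with 500 or more counts were kept, and doublets were not called. The 2 plates held 538517 and 893098 counts in kept cells.

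Counts were summed for positive and comparison cells of each plate and prefix (8 sums) and tested with edgeR 4.0.16 in R 4.3.3 (TMM, filterByExpr, quasi-likelihood, Benjamini-Hochberg, threshold 0.05), with the pool as a block. Positive and comparison sums of a pool share plate, prefix and wells of origin, and their deviations from the group means correlated at 0.34 to 0.61 in the 4 pools. Standard errors divide the log2 fold change by the root of F; where edgeR bounds p by a Poisson test they are too small. The calculation was tested on simulated sums, drawn with the same dispersion for every gene and not built from wells. That test therefore does not bear on calls that rest on few wells. Python 3.11.15, pandas 2.3.3 and scipy 1.17.1 gave shares and exact 95% intervals. Alternatives were DESeq2 1.42.0 and other scalings, filters, matching, thinning, member rules and left-out pools.

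Members, lists and tests were chosen with earlier results of these data known. Named genes were all tested granule, factor and receptor genes, up to 5 per other list by mean CPM, and the 5 lowest p per direction; Erg, Bach2, Mecom, Hlf, Rrm1, Cd48 and genes below the filter were added after their values were seen. The ChIP-seq, RNA-seq and ATAC-seq samples were not analysed here.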

Additional observations from a re-analysis of the deposited data

Results flagged for a closer look

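Plate 352W had the highest share of counts from immunoglobulin genes, at 1.62% of the counts of kept cells, against 0.263% on 353W, 0.00244% on 350W and 0.000283% on 351W. The rule behind this sets the gap to the next plate against the range of the 4 plates, and by chance it picks out about 1 of 20 groups. As a ratio, the wider gap lay between 352W and 353W on one side and 350W and 351W on the other. Antibody genes also gave the differences between KO and WT in how positive cells differed from comparison cells, with log2 differences of 5.05 for Jchain, 5.45 for Iglv1 and 2.90 for Igha in edgeR's interaction test. Without the cells of over 100 immunoglobulin counts none of the 3 was called. The part of those few wells in the difference between plates was not tested.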

How the results depend on the processing

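The number of genes called between positive and comparison cells was 1 in the fit reported and 0 to 9 over 22 alternatives. It was 0 with DESeq2, with 1 comparison cell per positive cell, without cells of over 100 immunoglobulin counts, and on plate 352W or 353W alone. It was 2 with cells thinned to 1000 counts, 4 when these were also without the 2 cells with the most Mpo and Ctsg, 5 with sums per plate and 9 with no gene filter. Leaving out 1 pool gave 0 to 3 called genes, 3 without the KO cells of 352W and 0 without any other pool. The interaction called 0 genes with DESeq2 or without cells of over 100 immunoglobulin counts, 7 with no gene filter, and 2 to 4 with a pool left out. KO against WT positive cells gave 0 with DESeq2 or without those cells, 6 with no gene filter, Bach2 among them, and 0 to 16 with a pool left out and no plate term: 16 without the KO cells of 352W, 6 without the KO cells of 353W and 0 without either WT pool. Without the replicate block, all 3 comparisons called 0 genes. The cause of these differences was not tested.

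The share of positive cells, 29.1% of cells, had an expected value of 12.5% at 1000 counts, and was 15.1% for 2 or more counts, 7.56% for Ctsg alone, and 19.5% to 38.3% with 1 plate left out. KO minus WT was -6.77 points with no minimum total and between -3.75 and 1.32 in the other alternatives. Of 74 genes tested that the naming rule or the text picked, 38 kept their sign in every alternative that fitted them, and 6 were called in at least 1. With 48 of 100 members resting on 1 count, depth limits which cells are members, and a cell with 0 counts is not shown to lack either transcript.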
